A study of Mus musculus with 8 samples.

Results

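The genes examined here encode the proteins that coat lipid droplets and those that help to build them. They comprise the perilipins *Plin1*, *Plin2*, *Plin3*, *Plin4* and *Plin5*, the CIDE genes *Cidea* and *Cidec*, the FIT genes *Fitm1* and *Fitm2*, and *Bscl2*, which encodes seipin. The 10 genes were chosen by symbol from the 41325 genes listed in each library. RNA-seq was performed in C3H10T1/2, a line of mesenchymal stem cells (MSCs) of the mouse that can become fat cells. The control line (shControl, which the labels give the genotype WT) and 3 stable knockdown lines (shKDM4D, shNFIB and shMLL1) were sampled at day 0, when the cells were post-confluent and not yet induced, and at day 5 of adipogenic differentiation. All day 5 cells had received insulin, dexamethasone and isobutylmethylxanthine in medium with serum, then insulin, then medium with serum only. The knockdown lines carried a pLKO.1 shRNA vector against *Kdm4d* (a histone H3K9 demethylase), *Nfib* (a nuclear factor I transcription factor) or *Kmt2a* (the H3K4 methyltransferase MLL1). They came from clones isolated under puromycin, and which clone was sequenced is not given in the sources used here, so the effect of the knockdown and that of the clone cannot be told apart. There was 1 library per condition and 8 in all.

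A lipid droplet is a core of triglyceride and cholesteryl ester enclosed by a single layer of phospholipid. Seipin and the FIT proteins act in the endoplasmic reticulum, where droplets form, while the perilipins bind the droplet surface and control the access of lipases. CIDEC sits where droplets touch and passes lipid from the smaller to the larger one, which is how the large droplet of the white fat cell arises.

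Levels are given as RPKM, the reads of a gene corrected for its exon length and for the mapped reads of the library, a scale on which genes can be compared with one another. The depth was between 15800000 and 38200000 mapped reads per library. No condition was replicated, so no p-value is given for a change within 1 line or for a difference between lines, and the 95% intervals of the log2 ratios are exact Clopper-Pearson intervals that cover counting error only. A gene was regarded as expressed if its RPKM exceeded 1 in any library, which held for 11513 genes, and a difference of more than 2-fold in RPKM was counted. Of the 10 genes, 7 were expressed and 3 (*Plin5*, *Cidea* and *Fitm1*) were not. The targeted genes were examined as a check of the labels. *Nfib* was at 23.3% of the shControl RPKM in shNFIB cells at day 0 and at 19.9% at day 5, and *Kmt2a* was at 38.7% and 30.9% in shMLL1 cells. *Kdm4d* was covered at day 0 by 2 reads in the control line and 1 in its knockdown line, too few to show a difference, and at day 5 by 13 and 4. All 10 mesenchymal markers examined were expressed. The summed RPKM of 8 adipocyte markers (*Adipoq*, *Fabp4*, *Lpl*, *Cfd*, *Retn*, *Lep*, *Adrb3* and *Slc2a4*) was at most 0.702 at day 0, and at day 5 it was 640 in shControl, 20.5 in shKDM4D, 0.90 in shNFIB cells and 2.62 in shMLL1 cells, with *Lep* at 0 in all libraries. In such bulk samples, fewer fat cells and less RNA per fat cell cannot be told apart.

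**Figure D1:**
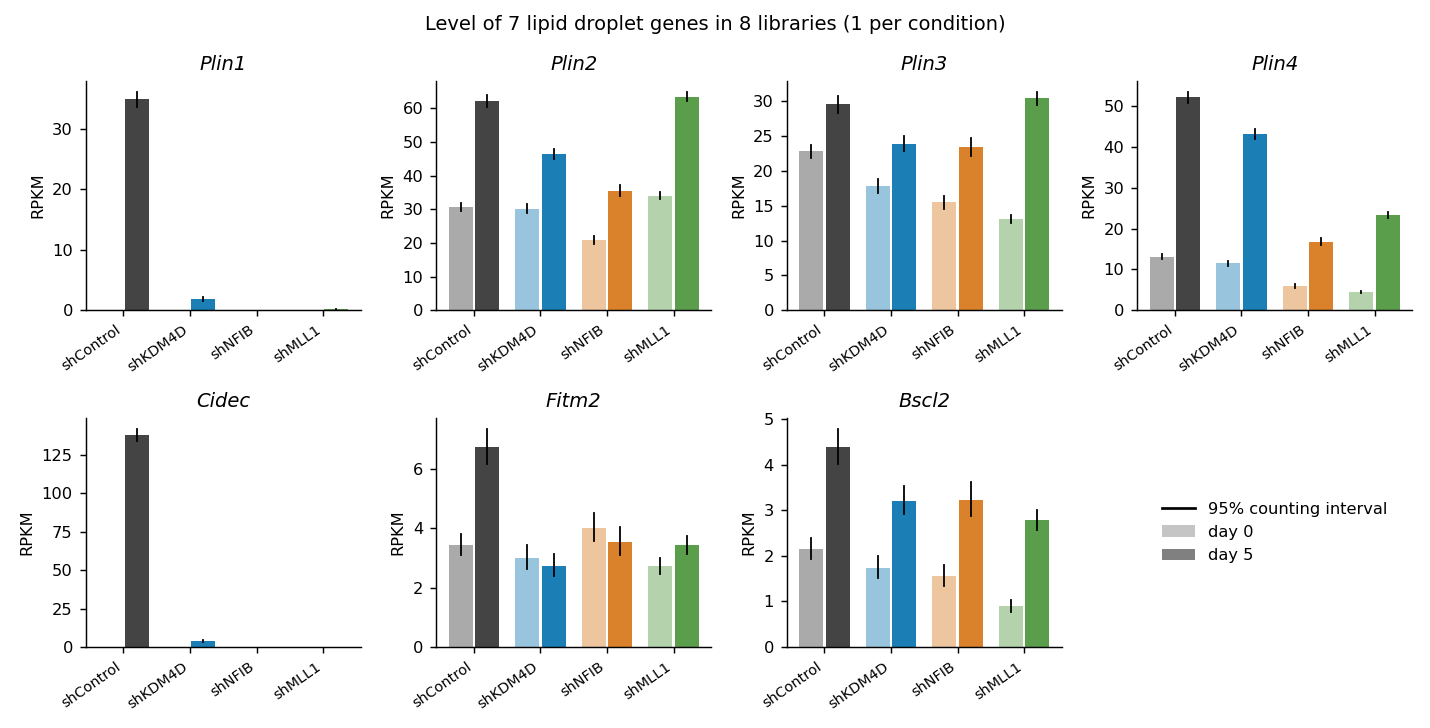
RPKM (linear axis from 0, a separate scale per gene) of the 7 expressed droplet genes in the 4 lines at day 0 (pale bars) and day 5 (full bars), with 1 library per bar and 95% counting intervals as black lines. *Plin1* and *Cidec* have a tall bar only in shControl cells at day 5 (34.9 and 138), while *Plin2*, *Plin3*, *Plin4*, *Fitm2* and *Bscl2* have visible bars in all 8 libraries.

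*Plin1* and *Cidec*, the genes of the coat proteins typical of the fat cell, were close to 0 in all lines at day 0 and were high in shControl cells alone at day 5. *Plin1* (chromosome 7 of GRCm38, from 79720218 to 79732903, protein coding) encodes perilipin 1, which guards the droplet of the fat cell until hormones call for lipolysis. Its RPKM at day 0 and day 5 was 0 and 34.9 in shControl, 0 and 1.86 in shKDM4D, 0.0230 and 0.0407 in shNFIB, and 0 and 0.181 in shMLL1 cells. These values rest on 0 and 3135, 0 and 187, 2 and 3, and 0 and 32 reads. The 4 lines could thus not be told apart before induction at this depth, and at day 5 each stood apart from the next in the order shControl, shKDM4D, shMLL1 and shNFIB. Against the floor of 3 reads at day 0, the day 5 level was 1440-fold in shControl, 56.3-fold in shKDM4D and 10.7-fold in shMLL1 cells. These ratios take the day 5 reads as counted, without their counting error. In shNFIB cells the log2 change was 0.82 (95% interval -2.30 to 4.40), and no change was detectable at this depth.

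*Cidec* (chromosome 6, from 113424634 to 113435760, protein coding) encodes the protein that enlarges droplets. The RPKM of *Cidec* at day 0 and day 5 was 0 and 138 in shControl, 0.0276 and 3.76 in shKDM4D, 0 and 0.0680 in shNFIB, and 0 and 0.113 in shMLL1 cells. At day 5 these were 4953, 151, 2 and 8 reads, in the order shControl, shKDM4D, shNFIB and shMLL1. In shControl cells at day 5 it ranked 286 by RPKM among all genes listed and was the highest of the 10 droplet genes, ahead of *Plin2* at rank 693. Against a floor of 3 reads at day 0, its day 5 level was 2275-fold in shControl cells and 2.67-fold in shMLL1 cells. The latter rests on 8 reads whose counting error is not included, so it is not a strict lower limit. In shKDM4D cells, with 1 read at day 0, the log2 change was 7.09 (4.59 to 12.41). Relative to shControl cells, the log2 ratio at day 5 was -5.20 (-5.44 to -4.96) in shKDM4D, -10.99 (-14.03 to -9.13) in shNFIB cells and -10.25 (-11.47 to -9.27) in shMLL1 cells. Among the knockdown lines, shKDM4D cells stood above shMLL1 cells by 5.06 (4.04 to 6.29), whereas shNFIB and shMLL1 cells differed by less than counting error (-0.73, -4.01 to 1.59). The summed adipocyte markers given above moved with both genes, being highest in shControl, next in shKDM4D and lowest in shNFIB cells, and their part in the differences was not tested.

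The sequences around the start sites of *Plin1* and *Cidec* are shown because both genes had a like pattern over the 8 libraries. Each is the RefSeq window of GRCm38.p6 from 250 bases before to 50 bases after the start, on the minus strand, at chr7:79732727-79733026 and chr6:113435711-113436010. Capitals would mark a match to 1 of 7 motifs searched on both strands, and these windows hold none.
Plin1: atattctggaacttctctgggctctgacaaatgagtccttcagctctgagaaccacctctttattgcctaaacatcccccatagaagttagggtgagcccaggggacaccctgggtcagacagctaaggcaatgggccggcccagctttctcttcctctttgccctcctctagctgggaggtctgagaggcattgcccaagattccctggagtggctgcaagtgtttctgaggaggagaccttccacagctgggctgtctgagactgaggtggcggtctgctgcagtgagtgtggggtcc
Cidec: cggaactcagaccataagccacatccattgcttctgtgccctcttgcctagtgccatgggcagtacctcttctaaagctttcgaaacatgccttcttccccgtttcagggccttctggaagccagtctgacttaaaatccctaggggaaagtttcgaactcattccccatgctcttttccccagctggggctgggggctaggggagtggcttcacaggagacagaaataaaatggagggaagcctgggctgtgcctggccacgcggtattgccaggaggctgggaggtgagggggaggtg
The half-site of many nuclear receptors, AGGTCA, is found in 16.3% of the 32851 windows of all genes, and its direct repeat spaced by 1 base, which PPARG binds with RXR and which contains the half-site, in 0.0396%. The half-site of nuclear factor I, TTGGCA, is found in 14.1% and the full palindromic site of that factor in 0.0152%. The CCAAT box is found in 37.4% of the windows, the TATA box (TATAAA) in 13.6% and the E-box of the sequence CACGTG in 7.15%. Windows of 9 of the 10 genes were used, 13 windows in all, since some genes have several annotated starts. *Cidea* was left out of this search by choice, and no window of it is reported here. The second window of *Cidec*, the window of *Fitm2* and the third window of *Bscl2* hold no match either.

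*Plin4* differed from *Plin1* and *Cidec* in that it was expressed before induction and was more than 2-fold higher in RPKM at day 5 than at day 0 in all 4 lines, although in shNFIB cells the log2 change relative to *Gapdh* was 0.91, short of 2-fold. *Gapdh* itself had an RPKM of 159 at day 0 and 235 at day 5 in shNFIB cells, and 247 and 243 in shControl cells. On the *Gapdh* scale the median change of all expressed genes in shNFIB cells was -0.47. *Plin4* (chromosome 17, from 56100591 to 56109803, protein coding) encodes perilipin 4, which coats small nascent droplets. The RPKM of *Plin4* at day 0 and day 5 was 13.1 and 52.0 in shControl, 11.4 and 43.2 in shKDM4D, 6.0 and 16.7 in shNFIB, and 4.42 and 23.3 in shMLL1 cells. Every step in the order of its 8 levels was beyond counting error, with all day 5 libraries above all day 0 libraries. The log2 change from day 0 to day 5 was 1.99 (1.91 to 2.06) in shControl, 1.91 (1.83 to 2.0) in shKDM4D, 1.48 (1.34 to 1.61) in shNFIB cells and 2.40 (2.30 to 2.50) in shMLL1 cells. The change in shKDM4D cells differed from that in shControl cells by -0.07 (-0.19 to 0.04), which is within counting error. It was smaller by 0.51 in shNFIB cells (difference -0.51, -0.66 to -0.36) and larger in shMLL1 cells (0.41, 0.29 to 0.54). The size of the latter excess depended on the scale. The shMLL1 and shControl changes were 2.24 and 1.97 with median-of-ratios size factors and 2.20 and 1.92 after quantile normalization. They were 2.28 and 2.02 relative to *Gapdh*, and 2.29 and 1.88 without 2 rRNA-like genes.

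At day 5, *Plin4* was at 82.9% of the shControl RPKM in shKDM4D cells, at 32.1% in shNFIB cells and at 44.8% in shMLL1 cells. Both lines with the lower day 5 levels were also lower at day 0, with log2 ratios to shControl cells of -1.13 (-1.26 to -1.0) in shNFIB cells and -1.57 (-1.68 to -1.46) in shMLL1 cells. In shKDM4D cells *Plin1* was at 5.33% and *Cidec* at 2.73% of the shControl RPKM on the same day. Relative to *Gapdh*, the shNFIB ratio of *Plin4* at day 0 was -0.49 and no longer past 2-fold. On that scale the median ratio of all expressed genes was 0.67. *Plin5* lies 1797 bases beyond the start of *Plin4* on the same strand and had at most 2 reads in any library, so these neighbours had unlike levels. *Plin3* is on the same stretch of chromosome 17. The *Plin4* window (minus strand, chr17:56109733-56110032) is shown for contrast with the previous pair, and its single match, in capitals, is a CCAAT box on the opposite strand at positions -18 to -14 from the start.
Plin4: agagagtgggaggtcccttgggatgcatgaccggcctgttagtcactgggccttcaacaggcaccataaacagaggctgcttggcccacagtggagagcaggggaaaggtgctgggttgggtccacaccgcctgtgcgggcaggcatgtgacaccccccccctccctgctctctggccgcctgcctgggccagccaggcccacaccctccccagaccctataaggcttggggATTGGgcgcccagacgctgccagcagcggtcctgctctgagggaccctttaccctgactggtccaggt

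*Plin2* and *Plin3*, which encode coat proteins found in most cell types, were well expressed in every library, and in RPKM neither differed by 2-fold between a knockdown line and shControl cells on either day. *Plin2* (chromosome 4, from 86648386 to 86670060, protein coding) encodes perilipin 2, the coat of droplets in cells that are not fat cells and in early fat cells. The RPKM of *Plin2* at day 0 and day 5 was 30.7 and 62.2 in shControl, 30.1 and 46.4 in shKDM4D, 20.8 and 35.6 in shNFIB, and 34.0 and 63.5 in shMLL1 cells. It was thus higher at day 5 in each line, and the shMLL1 and shControl libraries were level with each other at day 5. The log2 change was 1.02 (0.95 to 1.09) in shControl, 0.62 (0.54 to 0.70) in shKDM4D, 0.77 (0.67 to 0.87) in shNFIB cells and 0.90 (0.85 to 0.95) in shMLL1 cells. Relative to shControl cells, its day 5 log2 ratio was -0.42 (-0.49 to -0.36) in shKDM4D, -0.81 (-0.88 to -0.73) in shNFIB cells and 0.03 (-0.02 to 0.08) in shMLL1 cells. No line differed from shControl cells by 2-fold, and the shMLL1 ratio changes sign with the scaling, being -0.03 by median-of-ratios size factors and -0.33 relative to *Gapdh*. In shNFIB cells *Plin2* was already lower than in shControl cells at day 0 (-0.56, -0.65 to -0.47), although relative to *Gapdh* that ratio was 0.08. On the *Gapdh* scale the median ratio of all expressed genes was -0.29 in shMLL1 cells at day 5 and 0.67 in shNFIB cells at day 0. The *Plin2* window (minus strand, chr4:86670010-86670309) is shown because it is the one with matches to 3 different motifs. In capitals are an AGGTCA half-site on the opposite strand at -218 to -213, a CCAAT box at -73 to -69 and a CACGTG E-box from -4 to 1.
Plin2: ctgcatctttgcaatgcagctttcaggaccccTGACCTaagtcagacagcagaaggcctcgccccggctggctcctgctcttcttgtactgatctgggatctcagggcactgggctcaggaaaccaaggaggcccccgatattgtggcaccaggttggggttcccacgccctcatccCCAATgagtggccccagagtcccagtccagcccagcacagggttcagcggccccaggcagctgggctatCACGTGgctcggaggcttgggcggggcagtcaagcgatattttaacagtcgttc

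*Plin3* (chromosome 17, from 56277476 to 56292873, protein coding) encodes perilipin 3, which moves from the cytosol onto new droplets. Its RPKM at day 0 and day 5 was 22.9 and 29.6 in shControl, 17.8 and 23.9 in shKDM4D, 15.5 and 23.4 in shNFIB, and 13.1 and 30.4 in shMLL1 cells. The shMLL1 line thus went from the lowest level at day 0 to a day 5 level that did not differ from that of shControl cells beyond counting error (log2 ratio 0.04, -0.03 to 0.12, and -0.32 relative to *Gapdh*). Its log2 change was 1.22 (1.14 to 1.30), against 0.37 (0.29 to 0.46) in shControl, 0.43 (0.32 to 0.53) in shKDM4D and 0.60 (0.48 to 0.71) in shNFIB cells. The change in shMLL1 cells exceeded that in shControl cells by 0.85 (0.73 to 0.96). The median change of all expressed genes in shMLL1 cells was 0.17. At day 5 the levels in shKDM4D and shNFIB cells did not differ from each other beyond counting error (0.03, -0.07 to 0.13), and both were below shControl cells by less than 2-fold.

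**Figure D2:**
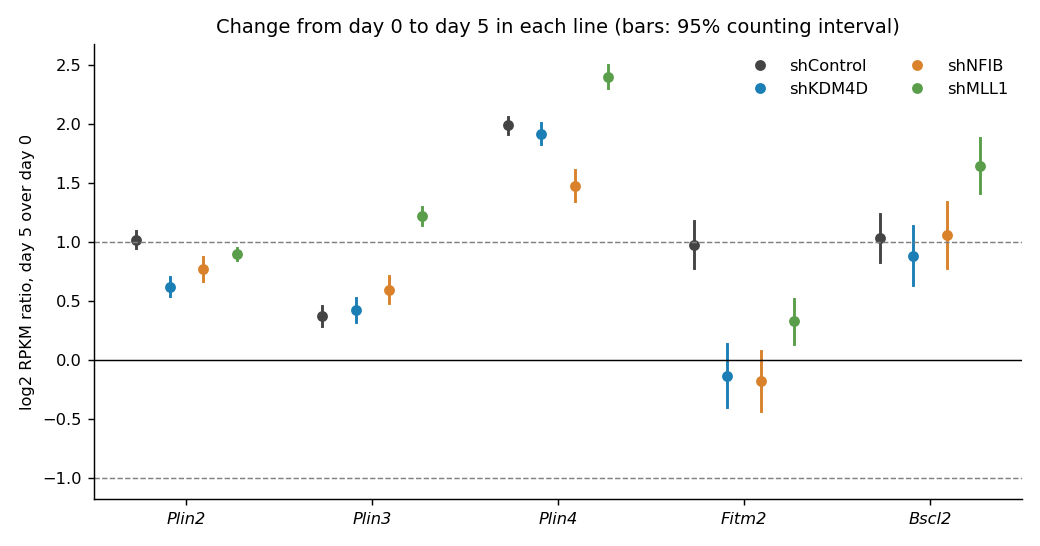
Log2 ratio of the day 5 to the day 0 RPKM (linear axis of log2 values) in each line for the 5 droplet genes with reads in all 8 libraries, with points for single libraries over each other, 95% counting intervals as bars and dashed lines at 2-fold. *Plin4* lies above the upper dashed line in all 4 lines (but at 0.91 relative to *Gapdh* in shNFIB cells), and *Fitm2* lies near it in shControl cells (0.98) but close to 0 in shKDM4D (-0.13, or 0.34 relative to *Gapdh*) and shNFIB cells (-0.18).

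The genes that act in droplet formation, *Fitm2* and *Bscl2*, were expressed at low levels throughout. *Fitm2* (chromosome 2, from 163466379 to 163472629, protein coding) encodes FIT2, a protein of the endoplasmic reticulum needed for the budding of droplets. Its RPKM at day 0 and day 5 was 3.43 and 6.74 in shControl, 3.01 and 2.74 in shKDM4D, 4.01 and 3.55 in shNFIB, and 2.73 and 3.42 in shMLL1 cells. The shControl library at day 5 stood above the other 7, each of which did not differ from its neighbour in the order of levels beyond counting error. Some pairs further apart in that order did differ. The log2 ratio was -0.33 (-0.54 to -0.12) for shMLL1 over shControl cells at day 0. For shKDM4D over shNFIB cells at day 5 it was -0.37 (-0.64 to -0.10). The log2 change was 0.98 (0.78 to 1.17) in shControl and 0.33 (0.14 to 0.52) in shMLL1 cells, the latter being -0.04 after quantile normalization. In shKDM4D cells it was -0.13 (-0.40 to 0.13), or 0.34 relative to *Gapdh*, and in shNFIB cells -0.18 (-0.43 to 0.08). On the *Gapdh* scale the median change of all expressed genes in shKDM4D cells was 0.50. The RPKM changes of *Fitm2* were smaller than in shControl cells by 1.11 in shKDM4D (difference -1.11, -1.44 to -0.78), by 1.15 in shNFIB cells (-1.15, -1.47 to -0.84) and by 0.65 in shMLL1 cells (-0.65, -0.92 to -0.38). At day 5 the level was 40.6% of that in shControl cells in shKDM4D, 52.6% in shNFIB cells and 50.7% in shMLL1 cells, of which the first was past 2-fold. The other pair lay near that limit, and the log2 ratios were -1.01 in shNFIB cells and -1.04 in shMLL1 cells with median-of-ratios scaling, and -1.03 and -1.14 after quantile normalization, so that 4 droplet genes instead of 3 were then past 2-fold lower in each of these lines. Of its exons, 5.72% overlap those of *2310001K24Rik* on the opposite strand, and whether the counting used strand is not given in the sources used here.

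*Bscl2* (chromosome 19, from 8837467 to 8848683, protein coding) encodes seipin, which holds the growing droplet to the endoplasmic reticulum. Its RPKM at day 0 and day 5 was 2.15 and 4.40 in shControl, 1.74 and 3.22 in shKDM4D, 1.55 and 3.23 in shNFIB, and 0.892 and 2.79 in shMLL1 cells. All 4 RPKM values at day 5 lay above all 4 at day 0, in contrast to *Fitm2*. The log2 change was 1.03 (0.83 to 1.23) in shControl, 0.88 (0.64 to 1.13) in shKDM4D, 1.06 (0.78 to 1.34) in shNFIB cells and 1.64 (1.41 to 1.88) in shMLL1 cells. In RPKM, the change in shMLL1 cells exceeded that in shControl cells beyond counting error (0.61, 0.31 to 0.92), but the size of the excess depended on the scale. The shMLL1 and shControl changes were 1.03 and 0.94 after quantile normalization and 1.0 and 0.78 with 1 added to each RPKM. They were 1.48 and 1.01 with median-of-ratios size factors, 1.53 and 1.06 relative to *Gapdh*, and 1.53 and 0.92 without 2 rRNA-like genes. The shMLL1 cells started from the lowest level, with a log2 ratio to shControl cells of -1.27 (-1.53 to -1.01) at day 0. At day 5 the ratios were -0.45 (-0.64 to -0.26), -0.44 (-0.65 to -0.23) and -0.66 (-0.83 to -0.48) in shKDM4D, shNFIB and shMLL1 cells. Its exons overlap those of *AC129217.1* on the same strand (4.05% of the exon bases) and *Gng3* on the opposite strand (6.75%), so some of its reads may belong to these genes.

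The other 3 genes are known from tissues with high fat oxidation or from muscle. *Plin5* (chromosome 17, from 56111601 to 56117596), the perilipin that ties droplets to mitochondria, had 2 reads each in shControl and shKDM4D cells at day 5 and 0 in the other 6 libraries. *Fitm1* (chromosome 14, from 55575617 to 55576954), the FIT gene of muscle, had 1 read each in shKDM4D and shNFIB cells at day 0 and 0 elsewhere. *Cidea* (chromosome 18), the CIDE gene of brown fat, had 0 reads in all 8 libraries. The floor of 3 reads in the shallowest library corresponds to an RPKM of 0.0907 for *Plin5*, 0.170 for *Cidea* and 0.195 for *Fitm1*, and levels below this were not detectable. The summed RPKM of 5 brown fat markers was at most 5.88.

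From day 0 to day 5, 5 of the 7 expressed droplet genes were past 2-fold higher in shControl cells (*Plin1*, *Plin2*, *Plin4*, *Cidec* and *Bscl2*), beside 13.0% of all expressed genes. *Plin2* and *Bscl2* were just past that limit, and without 2 rRNA-like genes, whose share of the reads was between 7.95% and 10.5% at day 0 and between 3.07% and 3.62% at day 5, their log2 changes were 0.91 and 0.92. In shKDM4D cells 3 of 7 were higher (*Plin1*, *Plin4* and *Cidec*), beside 12.8% of all expressed genes. The same count held in shNFIB cells (*Plin4*, *Bscl2* and *Cidec*, the last on 2 reads against 0), beside 12.6%. In shMLL1 cells it was 5 of 7 (*Plin1*, *Plin3*, *Plin4*, *Cidec* and *Bscl2*), beside 20.4%. None was past 2-fold lower at day 5 in any line, beside 8.56%, 8.44%, 4.96% and 6.89% of all expressed genes in shControl, shKDM4D, shNFIB and shMLL1 cells. *Plin1* and *Cidec* counted as expressed only through shControl and shKDM4D cells at day 5, so their calls as higher follow in part from that choice.

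The lines can also serve as 4 pairs of day 0 and day 5 libraries, which allows a test of the change averaged over the lines, though not of the change in any 1 of them. A limma fit of log2(RPKM + 0.1) values over all 11513 expressed genes, with line as a block and thus 3 residual degrees of freedom per gene, called 4 of the 7 droplet genes higher at day 5 at a Benjamini-Hochberg adjusted p under 0.05, beside 29.0% of all expressed genes, and 0 lower, beside 21%, all 7 means being above 0. *Plin4* rose by 1.93 ± 0.151 (log2, SE, adjusted p = 0.000645), *Bscl2* by 1.10 ± 0.150 (adjusted p = 0.00244), *Plin2* by 0.83 ± 0.0956 (adjusted p = 0.00154) and *Plin3* by 0.65 ± 0.154 (adjusted p = 0.0153), each being higher in 4 of 4 lines. *Plin1* and *Cidec* were likewise higher in 4 of 4 lines (in shNFIB cells on 3 against 2 reads and 2 against 0), but the mean of 3.61 ± 1.32 for *Plin1* (limma, adjusted p = 0.0623) and that of 4.30 ± 1.6 for *Cidec* (adjusted p = 0.0649) did not pass. The mean for *Fitm2* was 0.24 ± 0.204 (limma, adjusted p = 0.352), with 2 of 4 lines higher. The spread in this test is that between lines of different genotype, and the fit was not repeated under the other scalings.

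Before induction, most of the droplet genes were within 2-fold of their level in shControl cells. In shKDM4D cells at day 0, 1 gene was past 2-fold higher than in shControl cells, *Cidec* on 1 read against 0, beside 1.98% of all expressed genes, and 0 were lower, beside 4.26%. In shNFIB cells *Plin1* was higher on 2 reads against 0, beside 2.95%, and *Plin4* was lower, beside 6.05%. In shMLL1 cells *Plin4* and *Bscl2* were lower, beside 7.43%, and 0 were higher, beside 1.67%. The calls that rest on 1 or 2 reads are not evidence of a difference in level.

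At day 5, 3 of the 7 genes were past 2-fold below shControl cells in each knockdown line. These were *Plin1*, *Cidec* and *Fitm2* in shKDM4D cells, beside 4.57% of all expressed genes. They were *Plin1*, *Plin4* and *Cidec* in shNFIB cells, beside 5.67%, and in shMLL1 cells, beside 4.02%. None was past 2-fold higher, beside 1.88%, 5.54% and 5.25%. All 3 comparisons share the shControl library. *Plin1* and *Cidec* had an RPKM over 1 only in shControl and shKDM4D cells at day 5. Their place in these counts thus follows in part from how expressed genes were chosen. For *Plin1* the log2 ratio was -4.23 in shKDM4D, -9.74 in shNFIB cells and -7.59 in shMLL1 cells. Such ratios depend on the scale in size, since with 1 added to each RPKM they were -3.65, -5.11 and -4.93 for *Plin1* and -4.87, -7.02 and -6.97 for *Cidec*, and after quantile normalization those in shMLL1 cells were -8.93 and -11.63. Between the knockdown lines at day 5, *Plin1*, *Plin4* and *Cidec* were higher in shKDM4D than in shNFIB cells, beside 4.21%, and *Plin1* and *Cidec* were higher in shKDM4D than in shMLL1 cells, beside 3.75%. None was lower in shKDM4D cells in these pairs, beside 6.14% and 7.0%. *Plin1* alone was lower in shNFIB than in shMLL1 cells, beside 6.08% (log2 ratio -2.15, -4.50 to -0.47), and none was higher, beside 3.93%. *Pparg*, the master regulator of adipogenesis, differed less between the knockdown lines, at 8.21 RPKM in shKDM4D, 7.48 in shNFIB cells and 7.22 in shMLL1 cells at day 5, against 21.7 in shControl cells. *Cebpa*, its partner, had 5.42, 3.66 and 2.42, against 14.0.

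**Figure D3:**
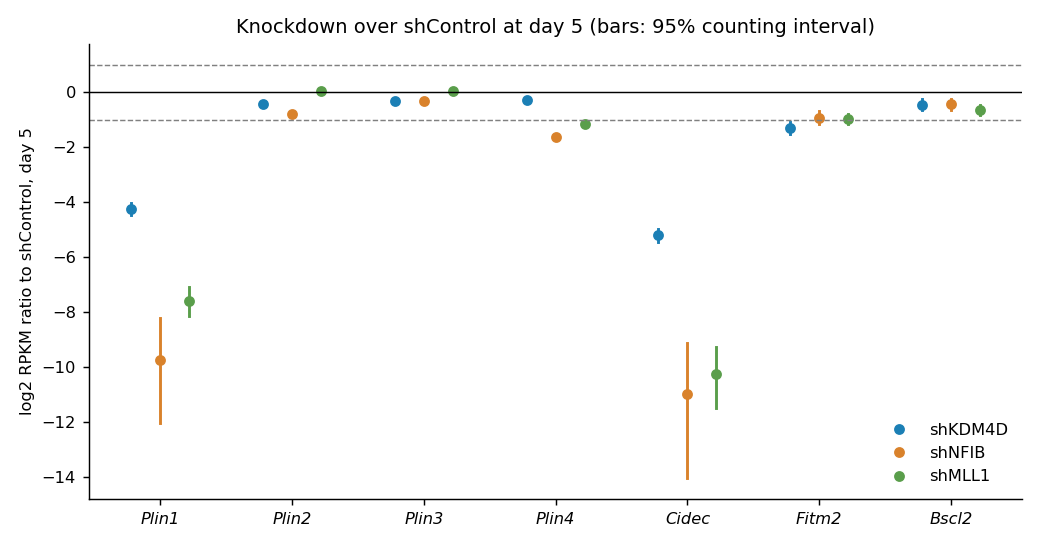
Log2 ratio of the day 5 RPKM in each knockdown line to that in shControl cells (linear axis of log2 values) for the 7 expressed droplet genes, with 95% counting intervals as bars and dashed lines at 2-fold. *Plin1* and *Cidec* lie at -4.23 and below in all 3 lines, while the other 5 genes lie between -1.64 and 0.04.

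Among the perilipin mRNAs, the share of *Plin4* was higher after induction in all lines, but *Plin1* took a large share in shControl cells alone. The summed RPKM of the 5 perilipins at day 0 and day 5 was 66.6 and 179 in shControl, 59.4 and 115 in shKDM4D, 42.3 and 75.8 in shNFIB, and 51.5 and 117 in shMLL1 cells. At day 5, *Plin1* made up 19.5% of this sum in shControl, 1.61% in shKDM4D, 0.0538% in shNFIB cells and 0.154% in shMLL1 cells. *Plin2* had the largest share at day 5 in all 4 lines, with 34.8%, 40.2%, 47.0% and 54.1% in the same order. The share of *Plin4* at day 0 and day 5 was 19.7% and 29.1% in shControl, 19.3% and 37.4% in shKDM4D, 14.2% and 22.1% in shNFIB, and 8.57% and 19.9% in shMLL1 cells. Such shares of mRNA carry no information on protein.

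**Figure D4:**
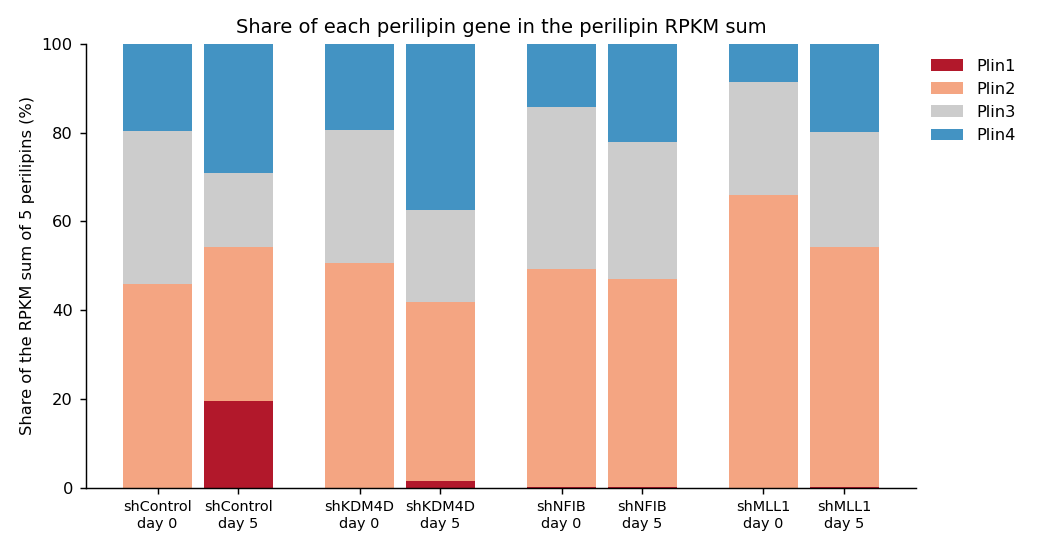
Share of each perilipin gene in the RPKM sum of the 5 perilipins (stacked bars, 0 to 100%) in the 8 libraries, with *Plin5*, at most 0.0384%, too small to be drawn. *Plin1* is visible only at day 5, with 19.5% in shControl and 1.61% in shKDM4D cells.

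Genes with the profile nearest to each droplet gene were sought over the 8 libraries by the root mean square (RMS) difference of centred log2(RPKM + 0.1) values, among 10997 expressed protein-coding genes. Nearest to *Plin1* were *Lpl* (0.54), *Gpd1* (0.55) and *Wfdc21* (0.64), and nearest to *Cidec* were *Adipoq* (0.62), *Plin1* (0.73) and *Fabp4* (0.87). Within an RMS difference of 1 there were 7 genes for *Plin1* and 5 for *Cidec*. *Plin4* was nearest to *Fam117a* (0.14), *Slc16a4* (0.26) and the transcription factor gene *Ebf1* (0.29), with 2757 genes within 1. For *Ebf1* the RPKM was 3.97 and 18.8 in the control line at day 0 and day 5, and 20.6 in shKDM4D, 9.28 in shNFIB cells and 11.2 in shMLL1 cells at day 5. For the remaining 4 genes, whose levels differed less among the libraries than those of *Plin1* and *Cidec*, between 9080 and 9925 genes lay within 1. Their nearest genes were *Wdpcp*, *Uqcrh* and *Mpst* for *Plin2* (0.14 each), *Sfi1*, *Pigs* and *Ctns* for *Plin3* (0.09 each), *Miga2*, *Crat* and *Akap7* for *Fitm2* (0.17 to 0.19), and *Psen2*, *Hacl1* and *Il3ra* for *Bscl2* (0.12 to 0.13). By Pearson correlation of log2(RPKM + 1) values, 1 of the 3 nearest was shared for *Plin4*, *Cidec* and *Bscl2* and 0 for the other 4.

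Other genes of the droplet were compared from fixed lists. Of 20 genes of triglyceride assembly and droplet biogenesis, 19 were expressed. At day 5, 6 of them were past 2-fold below shControl cells in shKDM4D, 6 in shNFIB cells and 5 in shMLL1 cells, with a median log2(RPKM + 0.1) difference of -0.35, -0.17 and -0.31, against 0.01, 0.09 and 0.07 over all expressed genes. These were 31.6%, 31.6% and 26.3% of the list, beside 4.57%, 5.67% and 4.02% of all expressed genes. The 5 that were lower in all 3 lines were *Acsl1*, *Agpat2*, *Gpat3*, *Dgat2* and *Dgat1*, which encode enzymes from the activation of fatty acids to the last step of triglyceride synthesis. For *Agpat2* the day 5 RPKM was 50.5 in the control line and 6.17, 6.85 and 5.06 in shKDM4D, shNFIB and shMLL1 cells. *Dgat2* had 24.8, against 8.78, 4.93 and 4.49. Only *Acsl3* was past 2-fold higher, in shNFIB cells. From day 0 to day 5, 7 of the 19 (36.8%) were higher in shControl, beside 13.0% of all expressed genes. In shKDM4D and shNFIB cells 1 each was higher (5.26%), below the 12.8% and 12.6% of all expressed genes, and in shMLL1 cells 4 were (21.1%), close to the 20.4% there. Lower at day 5 were 1 of the 19 in shControl (*Acsl3*, 5.26% beside 8.56%) and 3 in shKDM4D (*Gpat3*, *Lpin2* and *Acsl3*, 15.8% beside 8.44%). In shNFIB cells 1 was lower (*Lpin2*, 5.26% beside 4.96%), and in shMLL1 cells 0 were, beside 6.89%.

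Of 26 other genes of droplet-associated proteins, mostly lipases, their regulators and enzymes found on droplets, 23 were expressed. At day 5, 6, 7 and 6 of them were past 2-fold below shControl cells in shKDM4D, shNFIB and shMLL1 cells, and 0, 1 and 2 were higher, with median differences of -0.38, -0.29 and -0.19. The lower genes were 26.1%, 30.4% and 26.1% of the list, beside the same 4.57%, 5.67% and 4.02%. The higher ones in shNFIB and shMLL1 cells were 4.35% and 8.70%, not far from the 5.54% and 5.25% of all expressed genes. The 5 that were lower in all 3 lines were *Pnpla2*, *Pnpla3*, *Lipe*, *G0s2* and *Aifm2*, the last just past 2-fold in shMLL1 cells (log2 ratio -1.01, -1.16 to -0.86). *Pnpla2*, which encodes the lipase ATGL, reached an RPKM of 109 in the control line at day 5, against 10.2, 5.20 and 8.91 in shKDM4D, shNFIB and shMLL1 cells. *G0s2*, which encodes its inhibitor, had 32.8, against 12.7, 9.93 and 6.23. *Lipe*, the gene of hormone-sensitive lipase, had 15.4, against 2.59, 1.10 and 1.81. *Pnpla3* was low, with 1.20 in shControl cells and 1, 0 and 0 reads in the knockdown lines. It counted as expressed through that shControl library alone, so its place in the counts of this list follows in part from that choice. The retinol dehydrogenase gene *Rdh10* was past 2-fold higher in shNFIB and shMLL1 cells, with 0.871 in shControl and 1.62, 1.74 and 2.08 in the knockdown lines. From day 0 to day 5, 9 of the 23 (39.1%) were higher in shControl, beside 13.0%, and 6 (26.1%) in shKDM4D, beside 12.8%. The counts of 4 (17.4%) in shNFIB and 6 (26.1%) in shMLL1 cells were nearer to the background of 12.6% and 20.4%. *Rdh10* was lower at day 5 than at day 0 in every line, and in shMLL1 cells *Hsd17b7* and *Nsdhl* were lower as well, making 13.0% of the list beside 6.89%.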

How the data were processed

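Total RNA of 8 C3H10T1/2 samples was sequenced by the authors with a stranded SMARTer kit, and the reads were mapped to the mouse genome (GRCm38, mm10 in the submitters' processing notes) with CLC Genomics Workbench. The deposited values are RPKM, 1 value per gene and library. The methods speak of quantile normalization, but the deposited RPKM were not of equal distribution across libraries and were used as given.

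Symbols were matched to GENCODE M21 (40823 of 41325 with an exon length), and RPKM multiplied by exon length and depth gave whole reads (within 0.02) for 96.2% to 96.6% of the values between 1 and 1000 reads. Depth was 15800000 to 38200000 mapped reads. Log2 ratios of RPKM, without pseudocount, carry exact 95% intervals conditional on the sum of reads of both libraries. A gene with 0 reads was set to a floor of 3 reads per library. The reads of the other library were then taken as counted, so such a ratio does not include their counting error. Intervals cover counting error only, since reads without molecular identifiers are not independent molecules. With 1 library per condition, no test was made of 1 line's change or of a difference between lines. The change from day 0 to day 5 averaged over the 4 lines was tested with limma (trended variance, Benjamini-Hochberg adjustment) on log2(RPKM + 0.1), with line as a block, a fit added after seeing the data. The alternatives were other pseudocounts, scalings and filters. The interval and the limma fit were tested on simulated data. Python 3.11.15, numpy 2.4.6, pandas 2.3.3, scipy 1.17.1, matplotlib 3.10.9, R 4.3.3 and limma 3.58.1 were used, and promoter windows came from RefSeq (GRCm38.p6).

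Named were the 10 droplet genes, the targeted genes with *Pparg* and *Cebpa*, the 3 nearest genes by profile, and up to 6 genes per list that were past 2-fold below shControl cells at day 5 in all 3 lines or above in at least 2. *Acsl3*, *Lpin2*, *Hsd17b7* and *Nsdhl* were chosen after their values were seen, as were the genes given in full among those listed. The genes, lists and alternatives were chosen with earlier results of these data known.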

Additional observations from a re-analysis of the deposited data

Results flagged for a closer look

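*Fitm2* is given here because its level at day 5 was below that at day 0 in 2 knockdown lines while it was above it in shControl cells. The log2 change from day 0 to day 5 was -0.13 (95% interval -0.40 to 0.13) in shKDM4D cells (0.34 relative to *Gapdh*) and -0.18 (-0.43 to 0.08) in shNFIB cells, against 0.98 in shControl cells. Both intervals include 0, and with 1 library per condition the difference between the lines was not tested.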

How the results depend on the processing

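Of 26 counts of droplet genes past 2-fold, all were within 1.5 times under median-of-ratios scaling and under a filter at RPKM 2, and none of the 28 single log2 ratios past 2-fold with reads in both libraries changed sign. Among all 79 such ratios, 13 changed sign under some setting, including *Plin1* from day 0 to day 5 in shNFIB cells (-2.35 after quantile normalization), which rests on 2 and 3 reads. From day 0 to day 5, the 5 genes higher in shControl cells were 3 with 1 added to RPKM, after quantile normalization, without the 2 rRNA-like genes, or where the whole interval had to pass 2-fold. The 3 higher in shNFIB cells were 1 with 1 added, after quantile normalization, relative to *Gapdh* (where *Plin4* and *Bscl2* were lost) and by the interval, the 5 in shMLL1 cells were 3 with 1 added, and the 3 in shKDM4D cells were 5 relative to *Gapdh*. Counts of 0 lower in shNFIB cells became 1 after quantile normalization (with zeros kept too) and with no filter, as did that in shKDM4D cells with no filter. At day 0, the 1 gene higher in shKDM4D and the 1 in shNFIB cells were 0 with 0.1 or 1 added and by the interval, and 2 with no filter and after quantile normalization. The latter also gave 2 higher in shMLL1 cells, because tied genes at 0 received values above 0; with genes at 0 kept at 0, a setting chosen after seeing the data, these day 0 counts of higher genes were not changed. The 2 lower in shMLL1 cells were 1 with 1 added and by both quantile settings, and the 1 lower in shNFIB cells was 0 relative to *Gapdh*. At day 5, the 3 lower in shMLL1 cells were 5 relative to *Gapdh*, which shifted the median of all expressed genes in that comparison to -0.29. By the difference of changes from day 0 the 3 lower genes were 1, 1 and 0 in shKDM4D, shNFIB and shMLL1 cells, a measure that omits *Plin1* and *Cidec* where day 0 had 0 reads. The 1 gene was *Fitm2* (-1.11 in shKDM4D and -1.15 in shNFIB cells). *Plin4* dropped out on its own values, -0.51 in shNFIB and 0.41 in shMLL1 cells. *Plin1* in shNFIB against shMLL1 cells was no longer counted (0) with 0.1 or 1 added or by the interval. *Gapdh* scaling moved that median furthest in shNFIB cells at day 0 (0.67). The limma fit with line as a block, chosen after seeing the data, called 4 droplet genes higher and 0 lower also with 1 added to RPKM. At these depths, a gene with 0 to 3 reads in both libraries supports no order between them.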
